A study of Mus musculus with 3 samples.

Results

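Tumor necrosis factor (Tnf) and the interleukin-1 family were followed through the single cells of an EGFR-driven mouse glioblastoma. Every sample is labelled EGFR WT (wild type) driven glioblastoma. The 10 genes, listed by name, are the ligands Tnf, Il1a, Il1b, Il18 and Il33, the receptor antagonist Il1rn and the receptors Tnfrsf1a, Tnfrsf1b, Il1r1 and Il1r2, which are 10 of the 50262 rows of the count table. Tumors were raised in adult mice of both sexes on a mixed background that carried, among other alleles, a conditional human EGFR transgene, Cdkn2A -/- and a conditional luciferase reporter, by injecting a Cre lentivirus into the striatum, and every group shares the same alleles. An early, a medium and a late tumor sample (the late one is called large in the cell annotation) were dissociated with collagenase and flow sorted into viable CD45+ and CD45- cells, CD45 being a marker of leukocytes and microglia. Each stage is 1 tumor sample, and the early one was pooled from several mice, so that stage and mouse cannot be told apart and no test was made between stages. Each tumor sample and sort was made into 4 inDrop libraries, 24 in all, spread over 3 sequencing runs that each held libraries of every stage and sort. The 3 deposited samples are these runs and not the tumor samples. Normal brain was not analysed here.

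TNF is made by myeloid cells as a membrane protein that is cut from the surface, and signals through the widely expressed receptor TNFR1 (Tnfrsf1a) and through TNFR2 (Tnfrsf1b), which is mostly found on leukocytes. IL-1 alpha and IL-1 beta bind the same signalling receptor (Il1r1), IL-1 receptor antagonist occupies that receptor without signalling, and IL-1R2 is a decoy that binds the cytokine but does not signal. IL-18 and IL-33 are relatives with their own receptors, and IL-33 is held in the nucleus of glial and stromal cells until it is released.

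After filtering, 17781 of 20811 deposited cells were kept, 5091, 3983 and 2111 CD45+ cells and 2725, 1603 and 2268 CD45- cells of the early, medium and late samples. The libraries held 62320 to 4226043 unique molecular identifiers (UMIs, counted transcripts) from 17 to 1751 cells, with medians of 1746 to 3802 UMIs per cell. Ptprc, which encodes CD45, stood at 227 to 250 CPM (UMIs of the gene per 1000000 UMIs of the cells summed) in the CD45+ sort and at 3.59 to 15.9 in the CD45- sort. Among kept cells 1285 shared a cell barcode with another library of the same run, and leaving them out changed none of the counts of called members given below. Cells were placed in classes by clustering without the 10 genes and naming each cluster from fixed markers; a class is written as "X-like", and 381 cells of 2 clusters stayed unnamed.

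Tnf lies on chromosome 17 (chr17:35199381-35202007, minus strand, GRCm38), and Il1a (chr2:129299610-129309972) and Il1b (chr2:129364570-129371139) are neighbours on the minus strand of chromosome 2. These genes are the ones whose UMIs were compared cell by cell, so the 250 bases before their RefSeq start sites (GRCm38.p6) are shown, 5′ to 3′ on the strand of the gene, with matches to the searched motifs in capitals.
Tnf, chr17:35202008-35202257, minus strand: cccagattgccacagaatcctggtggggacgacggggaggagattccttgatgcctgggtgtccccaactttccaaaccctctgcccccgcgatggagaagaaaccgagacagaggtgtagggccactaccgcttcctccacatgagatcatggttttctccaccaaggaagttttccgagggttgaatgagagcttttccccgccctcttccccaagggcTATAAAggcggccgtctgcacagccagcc
Il1a, chr2:129309973-129310222, minus strand: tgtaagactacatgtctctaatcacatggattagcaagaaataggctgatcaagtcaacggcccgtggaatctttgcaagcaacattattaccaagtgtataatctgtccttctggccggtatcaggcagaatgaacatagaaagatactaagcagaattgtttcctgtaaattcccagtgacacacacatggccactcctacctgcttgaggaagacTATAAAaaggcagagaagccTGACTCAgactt
Il1b, chr2:129371140-129371389, minus strand: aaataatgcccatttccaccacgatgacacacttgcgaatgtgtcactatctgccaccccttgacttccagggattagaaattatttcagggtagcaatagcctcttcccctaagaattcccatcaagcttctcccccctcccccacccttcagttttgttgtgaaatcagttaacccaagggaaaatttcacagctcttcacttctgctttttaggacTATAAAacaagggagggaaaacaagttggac

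The letters TATAAA, a core promoter element, the AP-1 motif with letters TGANTCA and the NF-kB consensus were searched on both strands, and no matches in these windows overlapped. All 3 windows hold TATAAA close to the start, 29 to 24 bases before it in Tnf, 32 to 27 in Il1a and 31 to 26 in Il1b, and Il1a also holds TGACTCA 12 to 6 bases before it. Of all 32851 promoter windows of this length, 12.4% hold the core promoter element, 6.75% the AP-1 motif and 3.90% the NF-kB consensus. Tnf, Il1a and Il1b windows held no match to the NF-kB consensus, which says only that those letters are not in these bases.

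The first comparison asked which sort held the transcripts. Tnf, Il1a, Il1b, Il1rn, Il1r2, Tnfrsf1a and Tnfrsf1b were higher in CD45+ cells, Il33, an alarmin, was higher in CD45- cells, and Il18 and Il1r1 did not pass the test. Thus 8 of 10 genes were called (adjusted p under 0.05, edgeR quasi-likelihood test on UMIs summed per tumor sample and sort, tumor sample as a block, Benjamini-Hochberg over all genes), against 46.1% of all 18433 genes tested, and 7 of them were higher in CD45+ cells, against 20.4% of all genes. The call of a gene that passed the filter on low counts only through the group where it is high is no support, which holds here for Il1rn, Il1r2 and Il33, so that only their levels are given. Il1r1, which was not called, also passed only through 1 sort. Of the 6 genes that passed in the lower sort alone, 5 were called, all higher in CD45+ cells. Within single runs, the direction over all runs was found in 9 of 9 pairs of tumor sample and run for 8 of the 10 genes, in 8 of 9 for Tnfrsf1a and in 6 of 9 for Il1r1. UMIs summed over a sort cannot tell fewer cells of a type from less RNA per cell. The 18 genes of an immediate-early and dissociation list summed to 20738, 10114 and 18247 CPM in CD45+ and 6457, 9146 and 8110 in CD45- cells, and their part in the differences was not tested.

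Tnf stood at 924, 315 and 319 CPM in the CD45+ sort of the early, medium and late samples, and at 95.8, 25.2 and 8.59 in the CD45- sort. The sorts did not overlap, although the early CD45+ value was far above the other CD45+ values, and the fitted difference was 4.38 on the log2 scale (SE 0.45, edgeR adjusted p = 0.0004). Il1a followed the same order, with 705, 242 and 335 CPM in CD45+ cells against 70.7, 19.1 and 6.23 (4.55 on the log2 scale, SE 0.53, edgeR adjusted p = 0.0007). Il1b, the main secreted interleukin-1, was at 1569, 2091 and 1721 CPM against 133, 68.4 and 3.4 (5.91 on the log2 scale, SE 1.12, edgeR adjusted p = 0.0052). Its CD45+ levels were close to each other, while its CD45- level was far lower in the late sample than in the others. That late CD45- value rested on 36 UMIs in 4 cells. Of the CD45- classes with at least 20 cells in each tumor sample, microglia-like cells had the most Il1b (1833, 1420 and 564 CPM). The call of Il1b between the sorts was lost when every gene with at least 1 UMI was tested (adjusted p = 0.15) and without the medium sample (adjusted p = 0.051).

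The antagonist Il1rn was at 43.8, 120 and 84.7 CPM in CD45+ cells and at 1.60, 0.91 and 0.76 in CD45- cells, without overlap. The decoy receptor Il1r2 was at 8.70, 31.5 and 8.36 CPM in CD45+ cells, 445 UMIs in all, and the CD45- sort held 1 UMI, a pooled ratio of 433 with an exact 95% counting interval of 77.4 to 17160. Tnfrsf1b, the leukocyte TNF receptor, was even across the tumors at 133, 113 and 133 CPM against 8.52, 3.81 and 3.12 (5.08 on the log2 scale, SE 0.35, edgeR adjusted p = 0.00013). For Tnfrsf1a, the other TNF receptor, the gap was smaller, 178, 143 and 149 CPM against 35.4, 77.4 and 125 (1.51 on the log2 scale, SE 0.39, edgeR adjusted p = 0.019). The CD45- level of Tnfrsf1a was higher in each later sample, and the call was lost without the medium sample (adjusted p = 0.067).

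Il33 had the reverse pattern, with 6.85, 1.03 and 3.72 CPM in CD45+ cells and 233, 188 and 119 in CD45- cells, without overlap. Il18 overlapped between the sorts, at 29.1, 13.9 and 15.1 CPM in CD45+ cells and 43.8, 39.9 and 22.2 in CD45- cells (edgeR adjusted p = 0.12). Il1r1, the signalling interleukin-1 receptor, was sparse in both, at 1.02, 1.44 and 9.29 CPM in CD45+ cells and 6.05, 4.88 and 4.34 in CD45- cells (edgeR adjusted p = 0.55). The late CD45+ sample was the only one in which the CD45+ value of Il1r1 was the higher of the pair.

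**Figure D1:**
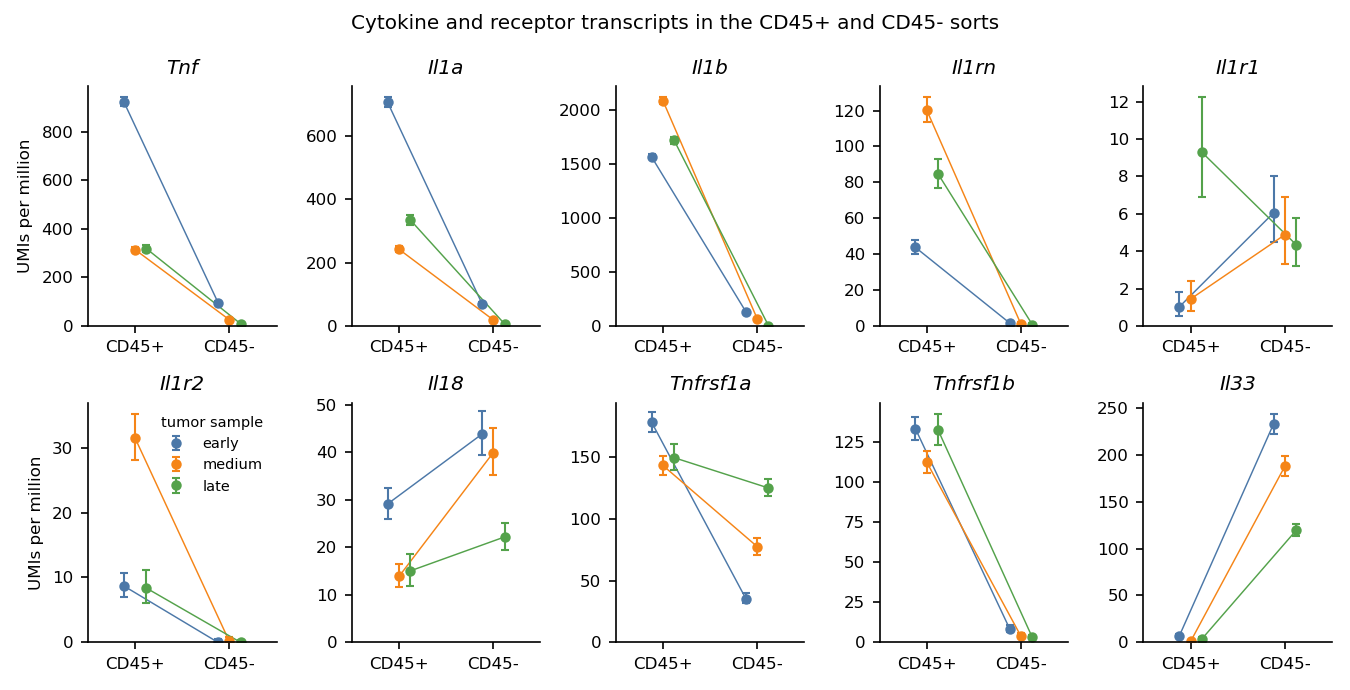
Level of each of the 10 genes (CPM, linear axes that start at 0) in the CD45+ and CD45- sorts; each point is 1 tumor sample, lines join the sorts of a sample and bars are exact 95% Poisson intervals, which cover counting error only. Tnf, Il1a, Il1b, Il1rn, Il1r2, Tnfrsf1a and Tnfrsf1b fall from CD45+ to CD45- in all 3 samples, Il33 and Il18 rise, and Il1r1 crosses, with 9.29 against 4.34 in the late sample.

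Most of the Tnf of the CD45- sort came from the few microglia-like cells in it. Microglia-like cells were 8.6%, 4.1% and 1.3% of CD45- cells and held 90.9%, 97.6% and 70.3% of the 776, 165 and 91 Tnf UMIs. In these CD45- microglia-like cells Tnf stood at 1331, 1115 and 1003 CPM, against 1117, 1368 and 604 in microglia-like cells of the CD45+ sort. A single macrophage or monocyte-like cell held another 25.3% of the late CD45- Tnf UMIs. In oligodendrocyte-like cells of the CD45- sort 0.29%, 0% and 0% of cells had a Tnf UMI at medians of 2254.5 to 2932.5 UMIs per cell, and in glioma or oligodendrocyte progenitor-like cells, of which 2.26%, 69.4% and 81.5% had a UMI of the human EGFR transgene, 0.56%, 0% and 0.26% had one. The shares of 0 allow a Tnf UMI in up to 0.455% and 0.43% of oligodendrocyte-like and 0.676% of glioma or progenitor-like cells (3 cells of the total, counting error only), which limits cells with a UMI and not cells that express the gene. In CD45+ microglia-like cells the share was 38.4%, 39.8% and 28.8% at medians of 1726.5 to 1943 UMIs. The CD45+ sort in turn held 265 glioma or progenitor-like, 69 oligodendrocyte-like and 42 neuron-like cells, and 0.0786%, 4.42% and 2.94% of its cells had a transgene UMI.

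The next comparison placed the cytokines among the myeloid classes of the CD45+ sort. Tnf and Il1a were lower in macrophage or monocyte-like cells than in microglia-like cells, Il1rn and Il1r2 were higher, and Il1b, Il18, Tnfrsf1a and Tnfrsf1b did not pass the test. That is 4 of 8 genes tested, against 19.8% of all 10684 genes tested; 2 were higher, against 12.2% of all genes, and 2 lower, against 7.60%. Of the 6 genes that passed the filter on low counts in the lower class alone, 3 were called, Il1rn higher and Tnf and Il1a lower. Il1r1 and Il33 were too sparse to be tested. The direction over all runs was found in 9 of 9 pairs of tumor sample and run for Tnf, Il1a, Il1b, Il1rn and Il1r2, in 8 for Il18, 7 for Tnfrsf1a and 3 for Tnfrsf1b.

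Tnf in microglia-like cells was 1117, 1368 and 604 CPM (1030 ± 389, SD, n = 3 tumor samples), and in macrophage or monocyte-like cells 415, 170 and 165 (250 ± 143). All microglia-like values lay above all macrophage or monocyte-like values, a fall of 2.09 on the log2 scale (SE 0.35, edgeR adjusted p = 0.00017), although without the replicate block the call was lost (adjusted p = 0.097). Il1a was 874, 953 and 592 CPM against 236, 196 and 241, again without overlap, a fall of 1.69 on the log2 scale (SE 0.27, edgeR adjusted p = 2.1e-05). Il1b leaned the other way, 1377, 1985 and 1621 CPM in microglia-like cells and 3598, 3340 and 2274 in macrophage or monocyte-like cells, a difference of 0.94 on the log2 scale (SE 0.52) that did not pass the test (edgeR adjusted p = 0.25), although the values do not overlap. It passed with every deposited cell kept (adjusted p = 0.043) and without the late sample (adjusted p = 0.047).

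Il1rn was 28.3, 33.4 and 29.2 CPM in microglia-like cells and 174, 220 and 148 in macrophage or monocyte-like cells (2.64 on the log2 scale, SE 0.46, edgeR adjusted p = 0.00053). In microglia-like cells, named by cluster, the antagonist was even across tumors. Among macrophage or monocyte-like cells Il1rn was 1.49 times higher in the medium than in the late sample. Its call was lost without the early sample (edgeR adjusted p = 0.12) and when each cell was classed by its own marker UMIs (edgeR adjusted p = 0.16). Il1r2 was at 0.25, 2.33 and 0 CPM in microglia-like cells, 5 UMIs in all, and at 49.1, 31.3 and 8.85 in macrophage or monocyte-like cells; since it passed the filter on low counts only through the latter, its call is no support. Neither TNF receptor passed the test. Tnfrsf1a stood at 187, 212 and 179 CPM in microglia-like cells against 169, 148 and 143, values that do not overlap but lie close together (edgeR adjusted p = 0.61), and Tnfrsf1b at 131, 138 and 171 against 187, 122 and 130, which overlap (edgeR adjusted p = 0.89).

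The macrophage or monocyte-like class was made of the same clusters in each tumor, in different shares. A Ly6i and Ccr2-led cluster held 44.95% of its early cells and a Cxcl9-led cluster 70.8% of its medium cells. A cluster led by Rnase2a, with Spp1 and Arg1, held 84.9% of its late cells. The Cxcl9-led cluster was named from 4 markers, none among its 10 leading genes. Named by cluster, the class held 307, 1792 and 716 cells. With each cell classed by its own marker UMIs it held 91, 430 and 173. Microglia-like cells numbered 3964, 698 and 970 by cluster, and 4341, 2091 and 1601 by their own marker UMIs. The genes of immediate-early response and dissociation, listed because the tissue was warmed in collagenase, also differed between the classes. They summed to 22504, 21938 and 29501 CPM in microglia-like cells and to 15484, 9376 and 11412 in macrophage or monocyte-like cells, and 13 of 18 were called lower in the latter (7.60% of all genes), with a median of −1.06 on the log2 scale against −0.04 over all genes. Their part in the differences of Tnf, Il1a and Il1b was not tested.

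The decoy receptor Il1r2 was highest in neutrophil-like cells. Against microglia-like cells, Il1r2, Il1rn and Tnfrsf1a were higher and Tnf, Il1a and Il18 lower, 6 of 8 genes tested, against 32.8% of all genes (15.2% higher and 17.6% lower). Il1r2 and Il18 passed the filter on low counts only through the class where they are high, and of the 6 genes that passed in the lower class alone 4 were called, Il1rn and Tnfrsf1a higher and Tnf and Il1a lower. Il1r2 was at 255, 171 and 213 CPM in the 51, 254 and 27 neutrophil-like cells, where 33.3%, 25.2% and 37.0% of cells had a UMI. Microglia-like cells held 5 Il1r2 UMIs in all. Il1rn was at 156, 90.3 and 506 CPM (2.84 on the log2 scale, SE 0.53, edgeR adjusted p = 0.00046) and Tnfrsf1a at 482, 239 and 373 (0.98 on the log2 scale, SE 0.30, edgeR adjusted p = 0.011). Both calls were lost without the early sample and when cells were classed by their own marker UMIs. Tnf was at 298, 90.3 and 66.6 CPM, a fall of 2.89 on the log2 scale (SE 0.40, edgeR adjusted p = 9.4e-06), and Il1a at 121, 57.4 and 66.6, a fall of 3.27 (SE 0.34, edgeR adjusted p = 2.8e-09). Il18 rested on 3 UMIs in neutrophil-like cells against 355 in microglia-like cells, a level 10.7 times higher in the latter, with an exact 95% counting interval of 3.65 to 52.4. The direction over all runs was found in 9 of 9 pairs of tumor sample and run for Tnf and Il1a, in 8 for Il1rn, Il1r2, Il18 and Tnfrsf1a, in 5 for Il1b and in 4 for Tnfrsf1b.

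Il1b was 5269, 1460 and 4474 CPM in neutrophil-like cells, higher than in microglia-like cells of the early and late samples and lower in the medium one, and the difference of 1.27 on the log2 scale did not pass the test (SE 0.53, edgeR adjusted p = 0.095). It passed under DESeq2, with every deposited cell kept, without the medium and without the late sample. The immediate-early list moved with the same samples, at 15382, 5594 and 14435 CPM in neutrophil-like cells, and 15 of 18 of its genes were called lower than in microglia-like cells (17.6% of all genes), 12 of them among genes that passed the filter on low counts in the lower class alone; their part was not tested.

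Over all CD45+ classes, ordered by the mean of the 3 tumor samples, Tnf was highest in microglia-like cells and next in an unnamed cluster led by the proliferation gene Mki67 (997, 930 and 411 CPM), and the values of these neighbours overlap. For Il1a the microglia-like level stood apart from that of the Mki67-led cluster (549, 270 and 305). Il1b ran in the order neutrophil-like, macrophage or monocyte-like, border or perivascular macrophage-like (3089, 3566 and 2242), whose values overlap, then microglia-like cells. The 21, 258 and 24 B cell-like cells are given as a reference because Il1b is chiefly a myeloid gene. They were at 27.8 to 361 CPM of Tnf and 91.3 to 541 of Il1b. A finer clustering named 15, 193 and 13 CD45+ cells B cell-like and 5, 45 and 9 plasmacytoid dendritic cell-like, so this class may hold both. With cells thinned to 1000 UMIs and shallower cells left out, 19.0%, 12.5% and 8.33% of B cell-like cells had an Il1b UMI against 36.4%, 46.9% and 37.1% of microglia-like cells and 69.3%, 70.1% and 59.6% of macrophage or monocyte-like cells. Without thinning the shares were 28.6%, 18.6% and 12.5%, 41.9%, 51.7% and 41.9% and 77.9%, 76.4% and 70.8% in the same order of classes.

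**Figure D2:**
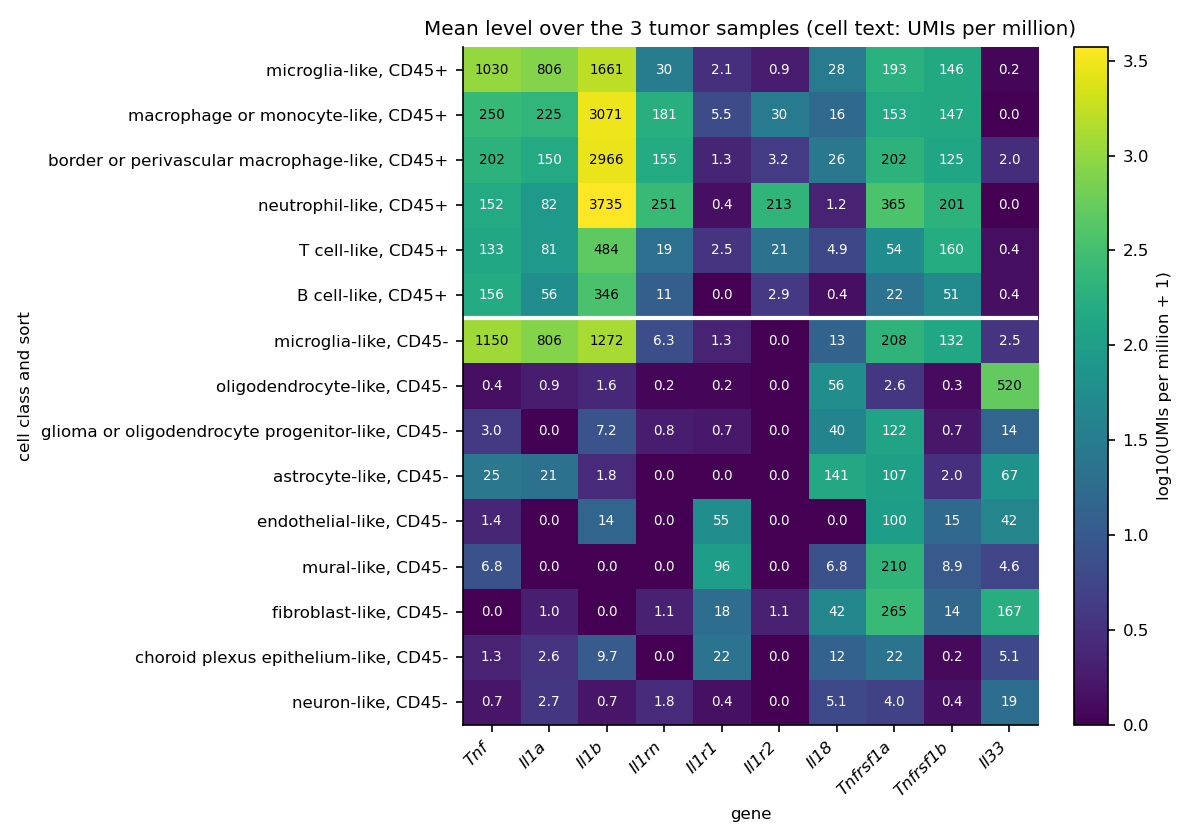
Mean level over the 3 tumor samples of each gene (columns) in the main cell classes of each sort (rows); colour is log10(CPM + 1) and the text in each cell is CPM. Tnf and Il1a peak in microglia-like cells of both sorts, Il1b and Il1rn in neutrophil-like and macrophage-like cells, Il1r2 in neutrophil-like cells, Il1r1 in mural-like and endothelial-like cells and Il33 in oligodendrocyte-like cells.

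Within the CD45- sort, Il33 was higher in oligodendrocyte-like than in glioma or oligodendrocyte progenitor-like cells and Tnfrsf1a was lower, and the other 6 of 8 genes tested did not pass. Of all 10830 genes, 32.0% were called, a larger share than the 2 of 8, with 12.4% higher and 19.6% lower in oligodendrocyte-like cells. None of the 8 genes passed the filter on low counts in the lower class alone, so neither call is support, and only the levels are given. The direction over all runs was found in 9 of 9 pairs of tumor sample and run for Il33 and Tnfrsf1a, in 7 for Il18 and in 1 to 4 for the others. Il33 stood at 479, 518 and 562 CPM in oligodendrocyte-like cells, of which 44.0%, 54.2% and 52.7% had a UMI, and at 27.2, 3.46 and 10.8 in glioma or progenitor-like cells, without overlap. Oligodendrocyte-like cells held 92.8%, 92.6% and 89.2% of the Il33 UMIs of the CD45- sort, and fibroblast-like cells came next in level (67.3, 208 and 226).

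Tnfrsf1a had the opposite pattern. It was at 2.19, 2.73 and 2.98 CPM in oligodendrocyte-like cells and at 81.7, 115 and 169 in glioma or progenitor-like cells, without overlap. Glioma or progenitor-like cells were 6.5%, 27.7% and 50.5% of CD45- cells and held 13.6%, 59.1% and 87.5% of the Tnfrsf1a UMIs of that sort. The clusters of this class had different shares in each tumor sample. The Pdgfra-led cluster, in which 0, 0 and 17 cells had a transgene UMI, held 142 of the 177 early but 95 of the 1145 late cells. The Gpr17-led and Fbln2-led clusters held 519 and 531 of the late cells. Within the Pdgfra-led cluster Tnfrsf1a was at 90.8, 107 and 135 CPM, with overlapping exact 95% Poisson intervals, within the Gpr17-led one at 43.7, 116 and 86.1 and within the Fbln2-led one at 88.1, on 2 UMIs, 118 and 228. Tnfrsf1a was higher in each tumor sample in fibroblast-like (131, 275 and 388), mural-like (133, 178 and 319) and CD45- microglia-like cells (183, 159 and 282), and these neighbours overlap. Il18 was at 63.5, 58.6 and 47.3 CPM in oligodendrocyte-like and 67.0, 36.6 and 16.5 in glioma or progenitor-like cells (1.09 on the log2 scale, SE 0.44, edgeR adjusted p = 0.053), below its level in astrocyte-like cells (86.1, 97.6 and 238). Il1a rested on 10 UMIs in oligodendrocyte-like cells and 1 UMI in glioma or progenitor-like cells (ratio 12.6, exact 95% counting interval 1.80 to 548) and was called with every deposited cell kept.

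The signalling receptor Il1r1 was highest in cells of the vessel wall. Mural-like cells held 91.8, 114 and 83.1 CPM and endothelial-like cells 47.1, 65.4 and 52.6, without overlap, although these levels rest on 24 and 32 UMIs. Choroid plexus epithelium-like cells (14.2, 10.1 and 42.2) and fibroblast-like cells (9.17, 10.1 and 34.1) came next, and their values overlap. In the late CD45+ sort, 32 of the 50 Il1r1 UMIs were in macrophage or monocyte-like cells, 31 of them in the Rnase2a-led cluster. Il1r2 was at 0 UMIs in every CD45- class but the fibroblast-like one, which held the only UMI.

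Levels also differed between the clusters within a class, and are given as descriptions, since clusters were cut from the same cells. In the Gpr84-led microglia-like cluster Tnf was 1881, 2430 and 902 CPM, against 564, 743 and 487 in the P2ry12-led and 391, 522 and 349 in the Tmem119-led cluster. Il1a was 1298, 1499 and 845 in the Gpr84-led cluster and between 429 and 555 in the others. Il1b was 2242, 3244 and 2668 in the Gpr84-led cluster and lowest in the P2ry12-led one (551, 657 and 734). The Gpr84-led cluster held 41.02%, 39.97% and 31.34% of microglia-like cells, and its order above the others was the same in each tumor sample.

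Among macrophage or monocyte-like clusters the Ly6i-led cluster had the most Il1b (4388, 4619 and 4248 CPM). It also had the least Tnf in each tumor sample (287, 77.5 and 47.0). The dendritic cell gene Xcr1, with Itgae, Mgl2 and Napsa, was among its leading genes. A finer clustering named 62, 159 and 52 CD45+ cells dendritic cell-like, with the same genes among those leading them. The Ly6i-led cluster may therefore hold dendritic cells, whose part in its levels was not tested. In the macrophage or monocyte-like class 153 of the 186 Il1r2 UMIs were in the Ly6i-led cluster (102, 113 and 70.5 CPM). Il1rn had no common order, being highest in the Rnase2a-led cluster of the early sample (368) and in the Ly6i-led cluster of the medium one (425).

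**Figure D3:**
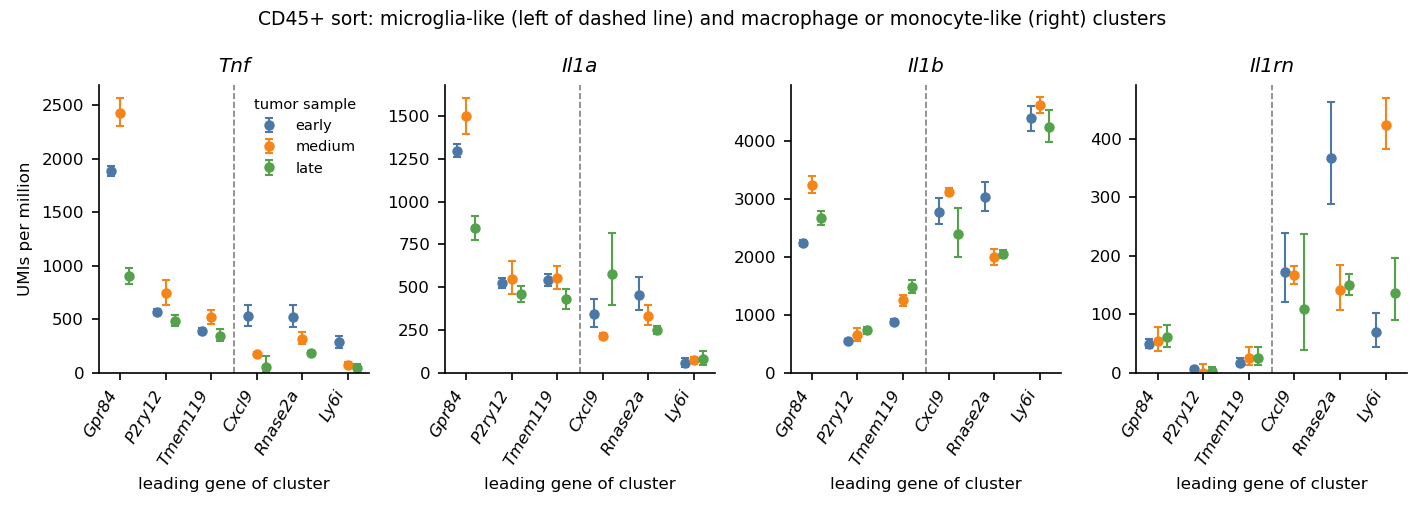
Levels (CPM, linear axes from 0) of Tnf, Il1a, Il1b and Il1rn in the 3 microglia-like clusters (left of the dashed line) and the 3 macrophage or monocyte-like clusters (right) of the CD45+ sort; points are tumor samples and bars exact 95% Poisson intervals. Tnf and Il1a peak in the Gpr84-led cluster and Il1b in the Ly6i-led cluster (4388, 4619 and 4248).

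Between stages only levels and counting intervals can be given, and libraries of a stage are technical. In microglia-like cells 7 genes had at least 20 UMIs. For 4 of them (Tnf, Il1a, Il1b and Tnfrsf1b) exact Poisson intervals of the highest and the lowest stage were apart. Of all 14388 genes with that many UMIs, 20.4% were apart. In macrophage or monocyte-like cells it was 8 of 9 (all but Tnfrsf1a), against 29.2% of 12870 genes. There Il1a counts as apart at a ratio of 1.23. Intervals narrow as UMIs rise, and the shares over all genes were not matched for UMIs. The counts therefore cannot show that stage moved these genes more than others. Tnf in microglia-like cells was 2.26 times higher in the medium than in the late sample, with intervals of 1305 to 1434 and 570 to 640 CPM. However, the 4 libraries of the early sample alone ranged from 936 to 2236, wider than the range of the stages. With cells classed by their own markers the medium class grew from 698 to 2091 cells. The stage ratios here are for classes named by cluster only. Il1a was lowest in the same late sample, 1.61 times below the medium one. Il1b in microglia-like cells was lowest in the early sample instead, with an interval of 1352 to 1403 against 1909 to 2064 in the medium one. The immediate-early list was highest in the late microglia-like cells, where Tnf and Il1a were lowest, and its part was not tested.

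In macrophage or monocyte-like cells Tnf was 2.51 times higher in the early than in the late sample, Il1b 1.58 times and Il1r2 5.55 times. The late libraries of this class ranged from 114 to 1301 CPM of Tnf, and the smallest of them held 9 cells. The shares of the clusters in this class differed over the same samples, and their part in the stage ratios was not tested. The Ly6i-led cluster, which held 44.95%, 21.1% and 11.5% of the class, had Il1b at 4388, 4619 and 4248 CPM. Within run 1, which held the smallest CD45+ libraries, 5 of the 16 pairs of gene and class had intervals apart, in place of 12 over all runs, and Tnf in macrophage or monocyte-like cells was higher in the late than in the early sample.

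Cell by cell, Tnf, Il1a and Il1b were found together more often than their separate frequencies would give. CD45+ cells were thinned to 1000 UMIs so that depth was equal, which left out the shallower cells (94, 1 and 45 microglia-like and 1, 1 and 10 macrophage or monocyte-like cells), and cells are counted within each tumor sample, where they share their libraries; no p is given because cells are not replicates. Of 3870, 697 and 925 microglia-like cells, 384 (9.92%), 94 (13.5%) and 38 (4.11%) had a UMI of all 3 genes, where the product of the 3 shares is 4.53%, 6.17% and 2.43%. None of the 3 was found in 35.9%, 31.9% and 39.0%, where the product is 26.2%, 21.4% and 34.3%. In the 306, 1791 and 706 macrophage or monocyte-like cells the share with all 3 genes was 4.58%, 2.18% and 1.13%, and cells with Il1b alone were the commonest kind, 156, 1004 and 310 cells.

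Of microglia-like cells with a Tnf UMI, 58.7%, 55.8% and 44.2% had an Il1a UMI, against 32.7%, 31.0% and 27.2% of those without, which are odds ratios of 2.92, 2.80 and 2.12 (0.5 added to each count). Il1a and Il1b had odds ratios of 2.91, 3.88 and 1.91, and Tnf and Il1b of 2.05, 2.22 and 1.09. In macrophage or monocyte-like cells the odds ratios were 4.07, 3.73 and 1.20 for Tnf and Il1a, 1.76, 1.33 and 2.94 for Tnf and Il1b, and 1.45, 1.94 and 1.75 for Il1a and Il1b. All 18 ratios were above 1, and 15 of 18 when each cell was classed by its own marker UMIs.

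The antagonist and its agonist were also found together in cells. Microglia-like CD45+ cells held only 331 Il1rn UMIs before thinning, and the odds ratio of this pair was not computed within single clusters. Il1b and Il1rn had odds ratios of 4.88, 4.16 and 9.41 in microglia-like cells, where 3.34%, 3.67% and 5.25% of cells with an Il1b UMI had an Il1rn UMI against 0.69%, 0.81% and 0.52% of those without, and of 3.24, 3.07 and 1.96 in macrophage or monocyte-like cells. Tnf and its receptors in the same microglia-like cell stood near 1, at 0.94, 0.81 and 1.03 for Tnfrsf1a and 0.97, 0.89 and 1.07 for Tnfrsf1b.

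For pairs of Tnf, Il1a and Il1b the ratios were also computed within single clusters. Within the Gpr84-led cluster, Tnf and Il1a had odds ratios of 1.75, 1.58 and 1.46, and Tnf and Il1b of 1.15, 1.07 and 0.63. Within the Tmem119-led cluster the ratios of Tnf and Il1a were 3.30, 3.03 and 1.98, and within the P2ry12-led cluster 2.41, 2.04 and 2.51. Il1a and Il1b in the late Gpr84-led cells were at 0.85, below 1.

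**Figure D4:**
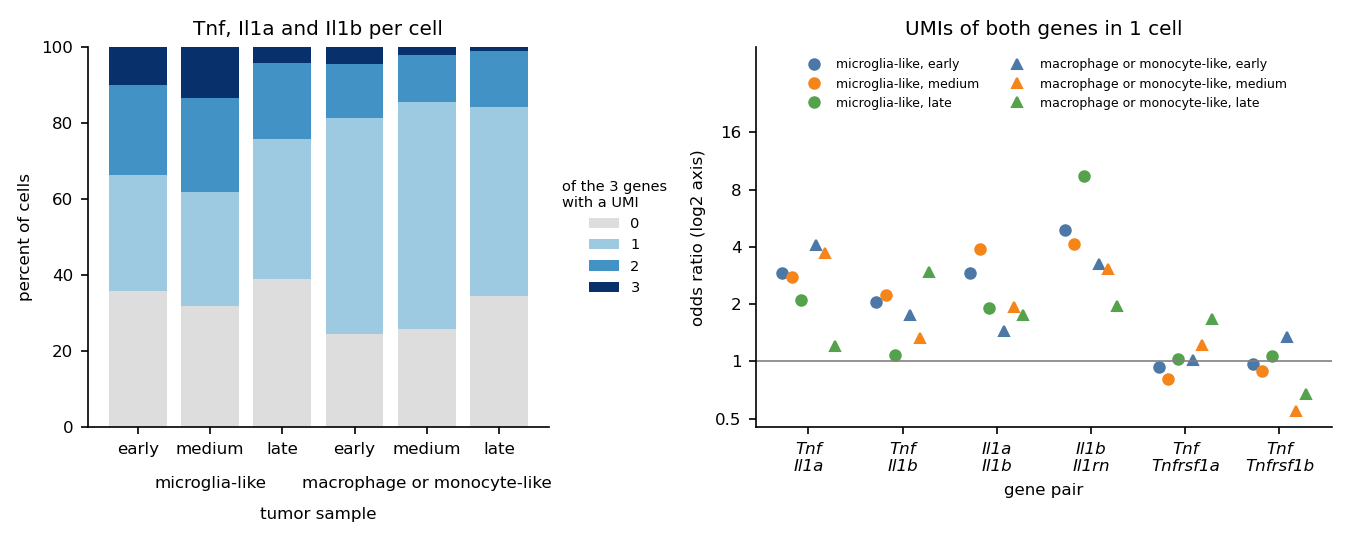
Left, percent of cells of each class and tumor sample with a UMI of 0, 1, 2 or 3 of Tnf, Il1a and Il1b after thinning each cell to 1000 UMIs. Right, odds ratios (log2 axis, line at 1) for finding both genes of a pair in 1 cell, circles for microglia-like and triangles for macrophage or monocyte-like cells. Pairs of Tnf, Il1a and Il1b and the pair Il1b and Il1rn lie above the line in every sample, and Tnf with its receptors lies on both sides of it.

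The genes most like each cytokine between microglia-like CD45+ cells were ranked by the lowest Pearson r of the 3 tumor samples over 5492 cells. For Tnf these were Nfkbia (0.51, 0.54 and 0.38), Ppp1r15a (0.27, 0.36 and 0.27), Junb (0.38, 0.42 and 0.24), Zfp36 (0.35, 0.46 and 0.22) and Dusp1 (0.32, 0.37 and 0.22). Nfkbia is the NF-kB inhibitor that NF-kB induces. Junb, Zfp36 and Dusp1 are on the immediate-early list, as are Egr1 and Nr4a1, named below for Il1a and for Il1b. For Il1a they were Cd83 (0.35, 0.33 and 0.30), Junb (0.25, 0.28 and 0.23), Marcksl1 (0.29, 0.26 and 0.21), Egr1 (0.22, 0.20 and 0.20) and Tnfaip3 (0.27, 0.24 and 0.19). For Il1b they were Cd83 (0.37, 0.36 and 0.33), the lipopolysaccharide co-receptor Cd14 (0.26, 0.30 and 0.26), Nr4a1 (0.22, 0.26 and 0.24), the chemokine Ccl4 (0.21, 0.27 and 0.21) and Cebpb (0.16, 0.25 and 0.17). Il1a ranked 25 for Tnf (0.26, 0.29 and 0.14), whereas Il1b ranked 891, with r of 0.17, 0.19 and −0.016. All 3 correlations were above 0 for 13.7% of the 2782 other genes with Tnf, 15.0% with Il1a and 14.5% with Il1b; the cells share libraries, and depth was made equal by thinning.

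The wider pathway was followed in lists chosen by gene name. Of 10 tested other ligands, receptors and inhibitors of the families, 8 were higher in CD45+ cells and 2 lower, against 20.4% and 25.7% of all genes (median 2.41 on the log2 scale against −0.04 over all genes). Of the 5 that passed the filter on low counts in the lower sort alone, 4 were higher and 1 lower, and Ltb, Lta, Il18rap, Il1rl2 and Il1rapl1 passed it only through the sort where they are high. Ltb, a lymphotoxin chain, stood at 25.7, 53.1 and 17.7 CPM in CD45+ cells and rested on 3 UMIs in CD45- cells (ratio 289, exact 95% counting interval 98.6 to 1404). Il18rap, Lta and Il1rl2 were also higher, with means of 6.22, 2.74 and 13.4 CPM against 0.26, 0.13 and 1.12. Il1rap, the shared accessory chain of the interleukin-1 receptors, was lower in CD45+ cells (12.6, 28.8 and 26.9 CPM against 176, 204 and 451; edgeR adjusted p = 0.00033), as was the neuronal receptor relative Il1rapl1 (mean 0.92 against 10.6).

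Of 15 genes of processing and release, 12 were higher in CD45+ cells, 1 was lower and 2 were not called, against 20.4% higher and 25.7% lower of all genes (median 2.71 on the log2 scale). Nlrp3, Nlrp1b and Rhbdf2 passed the filter on low counts only through the CD45+ sort, and of the 12 that passed in the lower sort alone 9 were higher and 1 lower. Nlrp3, the inflammasome sensor, had 210, 106 and 129 CPM against 13.1, 5.03 and 0.85. The inflammasome adaptor Pycard (mean 209 against 12.9), the pore protein gene Gsdmd (47.9 against 3.91) and Nlrp1b (1.71 against 0.08, on 2 UMIs in CD45- cells) were higher as well. Timp3, an inhibitor of the protease that sheds TNF, was lower (6.66, 38.9 and 23.8 CPM against 98.4, 226 and 126; edgeR adjusted p = 0.0012).

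Of 31 signalling genes, 21 were higher, 2 lower and 8 not called in the same comparison, against 20.4% higher and 25.7% lower of all genes (median 1.47 on the log2 scale). Nfkbia stood at 2565, 1035 and 2140 CPM in CD45+ cells against 272, 171 and 114 (edgeR adjusted p = 0.00036), and the feedback inhibitor Tnfaip3 at 752, 342 and 477 against 61.7, 20.4 and 7.84 (edgeR adjusted p = 0.00049). Rel and Birc3 were higher too (means 115 and 61.0 against 11.9 and 8.54), whereas the adaptors Traf6 (9.35 against 20.2) and Tollip (53.6 against 106) were lower. Of the 18 immediate-early genes 15 were higher, among them Atf3, Btg2, Junb and Zfp36, and 3 were not called. These 4 had means of 645, 1499, 2398 and 1363 CPM against 76.9, 268, 559 and 343.

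Between macrophage or monocyte-like and microglia-like cells 1 of 27 signalling genes was called higher and 3 lower (12.2% and 7.60% of all genes), with a median of −0.13 on the log2 scale against −0.04 over all genes, and of 13 processing genes 1 was called higher and 1 lower. Of 8 other ligands and receptors 3 were called higher, none of which passed the filter on low counts in the lower class alone, nor did the 2 called processing genes. Between neutrophil-like and microglia-like cells 3 of 8 other ligands and receptors and 1 of 13 processing genes were called higher, and 4 processing genes and 3 of 27 signalling genes lower (15.2% and 17.6% of all genes). Among those that passed in the lower class alone, none were called higher, and 1 processing gene and 2 signalling genes were lower. Between oligodendrocyte-like and glioma or progenitor-like cells, 1 of 4 other ligands and receptors, 2 of 22 signalling genes, 5 of 10 processing genes and 13 of 18 immediate-early genes were called lower and none higher (19.6% and 12.4% of all genes), the last 2 lists with medians of −1.66 and −2.44 against −0.16 over all genes. Of these calls only 8, all of immediate-early genes, were of genes that passed in the lower class alone.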

How the data were processed

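Single cells of 3 tumor samples, each sorted into CD45+ and CD45- cells, were profiled by inDrop. The values are unnormalized UMI counts, which the authors made with RapMap in the bcbio pipeline against the GRCm38 transcriptome, per the study's methods; the labels name mm10, and the deposited table also has a row for the human EGFR transgene. The authors also describe removal of ambient RNA and doublets, and whether it was applied to these counts is not given in the sources used here. Gene positions and promoters are from GENCODE and RefSeq annotations of GRCm38.

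Cells with at least 500 genes, 500 UMIs and at most 20% mitochondrial UMIs were kept, and 113 doublets called by Scrublet (0.635%) were removed, so doublets are likely to remain; 2 libraries were too small to be scored. Cells were clustered without the 10 genes (scanpy 1.11.5, leidenalg 0.10.2, 40 principal components, resolution 1), and a cluster was named from at least 3 markers. UMIs were summed per tumor sample and class or sort, since technical libraries and cells are not replicates, and tested with edgeR 4.0.16 (R 4.3.3; quasi-likelihood, filterByExpr, TMM, tumor sample as a block, Benjamini-Hochberg, threshold 0.05). Sums of classes needed at least 20 cells. The block was used because both sorts and all classes of a tumor sample come from the same animals; deviations of its sorts from the group means correlated at 0.38, 0.28 and 0.30. P-values measure how much the difference between groups varied over these 3 tumor samples, which are also 3 stages. In the class comparisons this spread was estimated over all classes of the fit, and it was moderated over genes. Each SE is the absolute log2 difference divided by the square root of the F statistic of its edgeR test.

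Levels are CPM, UMIs of a gene per 1000000 UMIs of the summed cells, with exact 95% Poisson intervals, which cover counting error only. For the relation between cells and for depth-matched shares, cells were thinned to 1000 UMIs and cells with fewer were left out. UMIs were counted per gene without length, so levels are not compared between genes. The text names all 10 genes, up to 4 called genes per direction and list with the largest fold change between sorts, and the 5 genes most like each cytokine among genes with a UMI in at least 5% of cells. Members and lists were chosen with earlier results of these data known. Alternatives were DESeq2 1.42.0, no TMM factors, no low-count filter, every deposited cell, a finer clustering, classes set cell by cell, no block, no thinning, single runs and leaving out each tumor sample or library. Each test was also run on simulated data. An allele of the model and 1 gene are not reported here.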

Additional observations from a re-analysis of the deposited data

Results flagged for a closer look

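In 3 comparisons the tumor samples differed in direction with exact 95% Poisson intervals of the compared groups apart both ways, and the differences between samples were not tested. Directions that differed with overlapping intervals, as for Tnfrsf1b between neutrophil-like and microglia-like cells and for Il18, Il1a, Il1b and Tnfrsf1b between oligodendrocyte-like and glioma or progenitor-like cells, are not listed. Il1r1 was higher in CD45+ than in CD45- cells of the late sample (9.29 against 4.34 CPM) and lower in the early (1.02 against 6.05) and the medium sample (1.44 against 4.88). Tnfrsf1b was higher in macrophage or monocyte-like than in microglia-like cells of the early sample (187 against 131 CPM) and lower in the late sample (130 against 171). Il1b was higher in neutrophil-like than in microglia-like cells of the early (5269 against 1377 CPM) and the late sample (4474 against 1621) and lower in the medium sample (1460 against 1985).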

How the results depend on the processing

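The counts of called genes stayed within 1.5 times of those reported under every alternative run, with 6 to 9 genes between the sorts, 3 to 5 between macrophage or monocyte-like and microglia-like cells, 4 to 7 between neutrophil-like and microglia-like cells and 2 to 3 between oligodendrocyte-like and glioma or progenitor-like cells when 1 tumor sample was left out. Pairs of gene and class with stage intervals apart numbered 10 to 13 of 16 when 1 library was left out and 5 within run 1. Of 354 single differences, 324 kept direction and call, 10 lost the call, 11 gained it and 9 turned direction, and for differences that turned the cause was not tested. These were Il1r1 between the sorts without replicate 1, the early sample (0.28 on the log2 scale); Tnfrsf1a (0.046, cells classed by their own markers) and Tnfrsf1b (−0.031 without TMM factors, −0.17 to 0.25 when 1 sample was left out) between macrophage or monocyte-like and microglia-like cells; and, between oligodendrocyte-like and glioma or progenitor-like cells, Tnf (0.32 with cells classed by their own markers, 0.33 with every deposited cell), Il1a (−0.78 to 2.89 when 1 sample was left out, lowest without replicate 1) and Il1b (−1.59 to 1.77, highest without replicate 1). Without the replicate block, Il1b in that last comparison was 0.088 and Tnf lost its call between macrophage or monocyte-like and microglia-like cells (−1.98 on the log2 scale); the block changed no other call among the 10 genes. Il18 was called lower in CD45+ cells without TMM factors (−0.89), and Il1r1 without the late sample (−1.78).

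Of 253 stage ratios under the alternatives, 214 stayed in the range of the counting intervals, 37 moved out of it and 2 turned direction. Of 102 log2 odds ratios, 80 stayed within 0.5 of the reported value, 19 moved further and 3 turned direction. Within run 1, log2 late over early was −0.026 for Il1b in microglia-like and 0.36 for Tnf in macrophage or monocyte-like cells. With cells classed by their own markers the log2 odds ratio in macrophage or monocyte-like cells was −0.55 (early) and −0.27 (late) for Tnf and Il1b and −0.64 (late) for Il1a and Il1b. Over all genes, calls between macrophage or monocyte-like and microglia-like cells fell from 1300 higher and 812 lower to 366 and 363 with cells classed by their own markers, and to 865 and 401 without the medium or 887 and 482 without the late sample. Between neutrophil-like and microglia-like cells they fell from 1619 and 1881 to 980 and 1263 with cells classed by their own markers and to 823 and 1007 without the medium sample. Without TMM factors the split moved to 2589 higher and 6559 lower between the sorts (3759 and 4744 with them), to 1373 and 2443 for neutrophil-like cells, and to 905 and 3239 for oligodendrocyte-like cells (1344 and 2126 with them), and the median of all genes moved to −0.40, −0.40 and −0.58 on the log2 scale. Cells that share a barcode within a run were left out as an alternative chosen after seeing the data.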
